A study of Mus musculus with 16 samples.

Results

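Myoepithelial cells of the mammary gland were compared between Cpeb2 -/- mice and Cpeb2 +/+ mice, here called knockout and wild type. They were taken as the arrays whose source is given as myoepithelial, which are 4 of the 16 arrays of the study, 2 knockout and 2 wild type. The cells had been sorted as Epcam low and CD49f high, and the luminal cells as Epcam high and CD49f low. Each array came from a separate female mouse aged 10 weeks on a C57BL/6J 129 background, and each mouse also gave 3 luminal populations. All 4 mice carry the entry Sox2-Cre +/+ in their labels, and whether it marks a carrier of the Cre is unstated. Sox2-Cre is a transgene known for recombination in the early embryo, and the genotype is given for the mouse, not for the sorted cells. Knockout replicate 1 and wild-type replicate 1 had the same parents (parent pair 1), and replicates 2 shared another set (parent pair 2). Each array started from 15 ng of total RNA, which was amplified, as the protocols in the labels state. The title of the study places the comparison in the question of how CPEB2 acts on RANKL (Tnfsf11) in mammary development and luminal tumorigenesis.

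CPEB2 is a cytoplasmic polyadenylation element binding protein, which binds sequence elements in messenger RNAs and sets the length of their poly(A) tails and how much they are translated. Myoepithelial cells form the outer, contractile layer of the mammary epithelium. They squeeze milk out in response to oxytocin, they secrete laminins and other proteins of the basement membrane on which they sit, and the same sorted gate holds basal cells with stem cell activity. RANKL is made by hormone-sensing luminal cells and acts on its receptor in neighbouring cells.

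The markers of the labelled cell type were present. Over 12 markers of myoepithelial cells the mean log2 level was 11.52 and 11.50 in the knockout arrays and 11.62 and 11.65 in the wild-type arrays, against 6.38 to 7.14 in the 12 luminal arrays. Over 20 luminal markers it was 7.83 and 7.81 in the knockout arrays and 7.52 and 7.68 in the wild-type arrays, against 9.65 to 10.76 in the luminal arrays. Of the antigens used in the sort, Itga6 (CD49f) had 11.56 and 11.56 in the knockout arrays and 11.84 and 11.15 in the wild-type arrays, and Epcam had 11.50 and 11.49 in knockout and 11.06 and 11.17 in wild type. Itga2 (CD49b), used to split the luminal cells, differed by 0.80 ± 0.25 (log2, standard error; limma, adjusted p = 0.179). Epcam was higher in both knockout arrays, but the difference of 0.38 ± 0.09 did not pass the test either (adjusted p = 0.0841).

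The 4 arrays were not equally alike, and this bears on every result that follows. Across the 45037 probe sets tested, the knockout arrays correlated with each other at r = 0.991, and wild-type replicate 1 correlated with them at 0.985 and 0.986. Wild-type replicate 2 stood apart, with r = 0.971 and 0.970 to the knockout arrays and 0.975 to wild-type replicate 1. Wild-type replicate 1 was therefore nearer to both knockout arrays than to the other wild-type array. The log2 differences of the parent pairs correlated at r = 0.213 across probe sets. For genes named by the rule given under processing, whether the call in myoepithelial cells held without wild-type replicate 2 is given with it. For calls in the difference in effect from luminal cells, only the total that held is given. Many named calls were also lost without either knockout array, which is not given gene by gene.

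The targeted gene was dim on these arrays. The brightest of 3 Cpeb2 probe sets had 5.25 and 4.71 in the knockout arrays and 5.41 and 6.03 in the wild-type arrays. Both knockout values lay below both wild-type values, and knockout replicate 2 lay under the lower quartile of all values, 5.13. The difference of -0.74 ± 0.41 did not pass the test (limma, adjusted p = 0.48), nor did it under any alternative setting, and the other probe sets differed by -0.16 ± 0.33 and -0.27 ± 0.32. The sources used here do not place these probe sets relative to the deleted part of the gene, so they are a weak check of the labels. The related genes Cpeb1, Cpeb3 and Cpeb4 differed by 0.59 ± 0.19, 0.08 ± 0.16 and 0.65 ± 0.38, and none passed the test. RANKL itself was near the lower quartile, with 5.01 and 5.11 in the knockout arrays and 5.06 and 5.54 in the wild-type arrays, and the groups overlapped.

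Of the 45037 probe sets, 336 were called at an adjusted p under 0.05 (limma over all 16 arrays, Benjamini-Hochberg), which is 0.746%. They were 172 higher (0.382%) and 164 lower (0.364%) in knockout cells. A limma fit of the 4 myoepithelial arrays alone called 0, with 3824 probe sets at an unadjusted p under 0.05, and array weights gave 106. Described by the brightest probe set, 146 of 17097 genes were called (0.854%), 61 higher (0.357%) and 85 lower (0.497%). Each count of calls in a gene list below is to be read against these shares. Of the 146, 83 differed by 2-fold or more, 28 higher and 55 lower. All 146 had the same sign in both parent pairs, and their knockout and wild-type values did not overlap. Without overlap were also 41.5% of all genes, and 3975 of the 17097 were higher and 5358 lower in both pairs. Groups without overlap must keep their sign in both pairs and with any 1 array left out, so a kept sign is no further support. Of 67 called genes with several probe sets, 20 had another one called in the same direction and 0 in the opposite one. When wild-type replicate 2 was left out, 39 of the 146 genes were still called, 24 lower and 15 higher, and all 146 kept their sign. When wild-type replicate 1 was left out instead, 143 were still called, and the total over all probe sets became 2725, against 188 without wild-type replicate 2. In bulk samples, fewer cells of a type and less RNA per cell cannot be told apart.

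**Figure D1:**
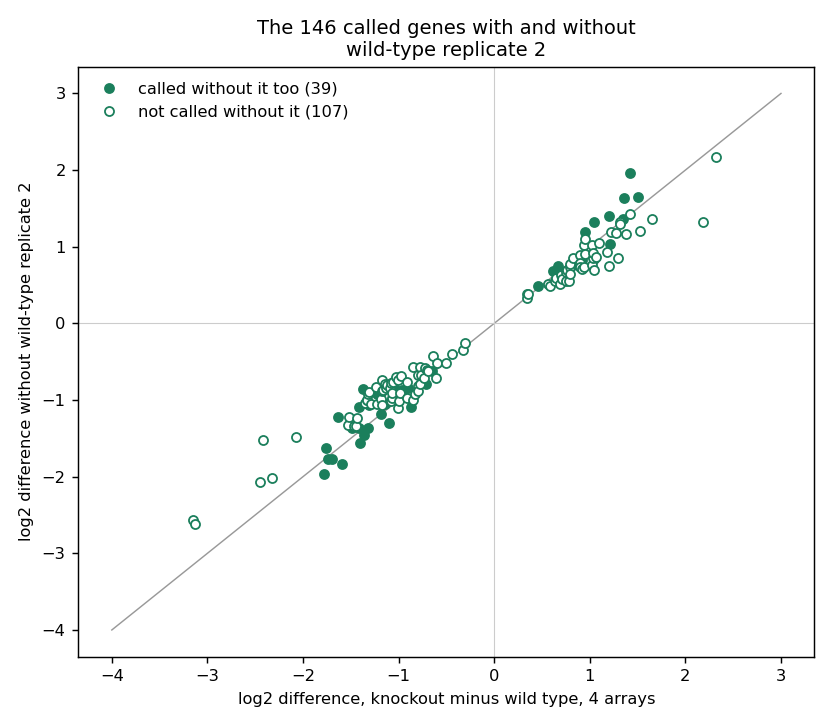
Log2 differences, knockout minus wild type, of the 146 called genes with all 4 myoepithelial arrays (x axis) and with wild-type replicate 2 left out (y axis); filled points are the 39 genes called in both. All points keep their sign, as groups without overlap must. The genes with the largest falls, such as Mcm5 and H2bc4, lie above the diagonal because their fall was smaller without that array.

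The largest falls were in genes of DNA replication. Mcm5 and Mcm2 encode subunits of the helicase that is loaded at replication origins. Mcm5 had 6.82 and 7.0 in the knockout arrays, against 9.56 and 10.55 in the wild-type arrays. The wild-type values lay more than 2 log2 units above the knockout values, a difference of -3.15 ± 0.48 or 8.85-fold (adjusted p = 0.014). A second Mcm5 probe set differed by -0.13 ± 0.07 and was not called. That probe set lay under the lower quartile of all values in each array, at 4.66 to 4.86, which leaves little room for a fall. Mcm2 had 4.87 and 4.84 in the knockout arrays, against 7.55 and 8.43 in the wild-type arrays. It fell by 3.13 on the log2 scale (standard error 0.45, adjusted p = 0.0106), and both knockout values lay under the lower quartile of all values. A second Mcm2 probe set gave -0.81 ± 0.37 and was not called, so the Mcm2 probe sets disagree in size.

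Among genes of DNA synthesis and nucleotide supply, Lig1, Tyms and Atad5 fell. Lig1, the ligase that joins Okazaki fragments, had 6.57 and 7.24 in the knockout arrays, against 9.02 and 9.69 in the wild-type arrays (difference -2.45 ± 0.38, 5.48-fold, adjusted p = 0.0162). Tyms, the enzyme that makes thymidylate, had 7.18 and 7.51, against 8.87 and 9.97 (-2.08 ± 0.39, 4.21-fold, adjusted p = 0.0374), while its 4 other probe sets differed by -0.39 to -0.04 and were not called. Atad5, which unloads the PCNA clamp from DNA, had 4.94 and 5.34, against 6.91 and 6.76 (-1.70 ± 0.23, adjusted p = 0.00803). Groups did not overlap in any of the 3, as in all 146 called genes. Atad5 was the member of these lists still called without wild-type replicate 2 (adjusted p = 0.0327), whereas Mcm5, Mcm2, Lig1 and Tyms had differences of -2.57, -2.62, -2.07 and -1.49 there, with adjusted p = 0.0833, 0.0648, 0.0961 and 0.176. E2f1, a transcription factor of S-phase genes, had 6.20 and 5.82, against 7.04 and 6.98 (-1.0 ± 0.20, adjusted p = 0.0444). It was not called without wild-type replicate 2 (adjusted p = 0.143), and its second probe set differed by -0.32 ± 0.27 and was not called.

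Because these genes fell together, the promoters of the 4 called members with the largest falls are shown, from RefSeq on GRCm38.p6, each a window that spans an annotated start. Capitals mark matches to E2F-type motifs, searched on both strands as TTTGGCGC, TTTCGCGC, TTTCCCGC and TTTGGCGG. The Mcm5 window (chromosome 8, plus strand, chr8:75109259-75109558) holds 2 overlapping matches, which begin 153 and 149 bases before the start. The Mcm2 window (chromosome 6, minus strand, chr6:88898731-88899030) holds 0. Of 3 Lig1 windows, the one shown (chromosome 7, plus strand, chr7:13278576-13278875) is the one with matches, 2 of them, both just after the start. The Tyms window (chromosome 5, minus strand, chr5:30073576-30073875) holds 0.
Mcm5: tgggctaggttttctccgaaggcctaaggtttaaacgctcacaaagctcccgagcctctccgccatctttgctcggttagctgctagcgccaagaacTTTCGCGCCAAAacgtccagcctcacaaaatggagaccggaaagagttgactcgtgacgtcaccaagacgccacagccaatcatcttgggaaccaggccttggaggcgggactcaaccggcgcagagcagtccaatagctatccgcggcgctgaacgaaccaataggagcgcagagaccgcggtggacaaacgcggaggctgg
Mcm2: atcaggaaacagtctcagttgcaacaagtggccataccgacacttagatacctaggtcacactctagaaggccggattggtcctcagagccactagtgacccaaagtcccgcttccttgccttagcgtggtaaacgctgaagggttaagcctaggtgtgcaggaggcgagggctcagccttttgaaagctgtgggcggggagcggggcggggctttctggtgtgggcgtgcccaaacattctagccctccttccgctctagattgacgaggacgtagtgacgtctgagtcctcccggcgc
Lig1: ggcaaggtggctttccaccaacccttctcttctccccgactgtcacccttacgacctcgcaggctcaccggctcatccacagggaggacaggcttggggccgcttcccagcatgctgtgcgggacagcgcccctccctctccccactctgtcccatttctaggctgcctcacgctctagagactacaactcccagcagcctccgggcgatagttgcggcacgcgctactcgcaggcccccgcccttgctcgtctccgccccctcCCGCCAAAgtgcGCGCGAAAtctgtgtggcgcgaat
Tyms: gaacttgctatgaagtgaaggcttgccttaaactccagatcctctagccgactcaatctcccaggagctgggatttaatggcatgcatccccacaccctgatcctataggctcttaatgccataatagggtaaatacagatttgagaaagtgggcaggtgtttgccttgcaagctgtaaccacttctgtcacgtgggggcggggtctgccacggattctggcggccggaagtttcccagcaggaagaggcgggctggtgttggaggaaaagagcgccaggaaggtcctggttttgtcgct

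Any of the 4 motifs was found in 777 of 32851 mouse promoter windows (2.37%), with shares of 0.514%, 0.323%, 1.07% and 0.56% for the motifs in the order above. A match describes the letters in the window and is not evidence of binding there. The window of Atad5 also held a match.

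Across the whole replication and division lists, the knockout values lay below wild type well beyond the called genes. Of 31 genes of DNA synthesis and nucleotide supply, 3 were called lower and 0 higher, and all 31 had a lower mean in knockout cells, with a median difference of -0.94. In 29 of them the groups did not overlap, where 24% of all genes were lower without overlap. Of 19 genes of origin licensing and the helicase, 2 were called lower, 18 had a lower mean and the median was -0.34. That median was -0.56 without wild-type replicate 1, with 4 genes called lower, and -0.17 without wild-type replicate 2, with 0 called. The median over all 17097 genes was -0.03, with 9795 lower and 7302 higher means, and 0.497% were called lower and 0.357% higher. In the list of 22 G1/S cyclins, E2F factors and CDK inhibitors, E2f1 was the 1 call, and the median of -0.09 turned to 0.06 without wild-type replicate 2.

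Mitosis genes had the lowest median of the 42 lists, -1.33 over 30 genes, and yet 0 were called. All 30 had a lower mean in knockout cells. In 25 the groups did not overlap, where 24% of all genes were lower without overlap. The median was negative in each luminal population too, as given below. The cyclin Ccna2 had 6.90 and 6.94 in the knockout arrays and 8.20 and 10.11 in the wild-type arrays. Cdk1, the kinase that drives entry into mitosis, had 7.20 and 6.99 in knockout and 7.89 and 9.74 in wild type, and the spindle midzone protein Prc1 had 6.72 and 7.27 in knockout and 8.04 and 9.91 in wild type. In each, wild-type replicate 2 was the high array and wild-type replicate 1 lay between it and the knockout arrays. The median of the list was -0.47 in parent pair 1 and -2.29 in parent pair 2. It was -2.26 without wild-type replicate 1, with 13 genes called, and -0.49 without wild-type replicate 2, with 0 called. For DNA synthesis the same medians were -0.52 and -1.26 by pair, with 8 genes called without wild-type replicate 1 and 1 without wild-type replicate 2.

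**Figure D2:**
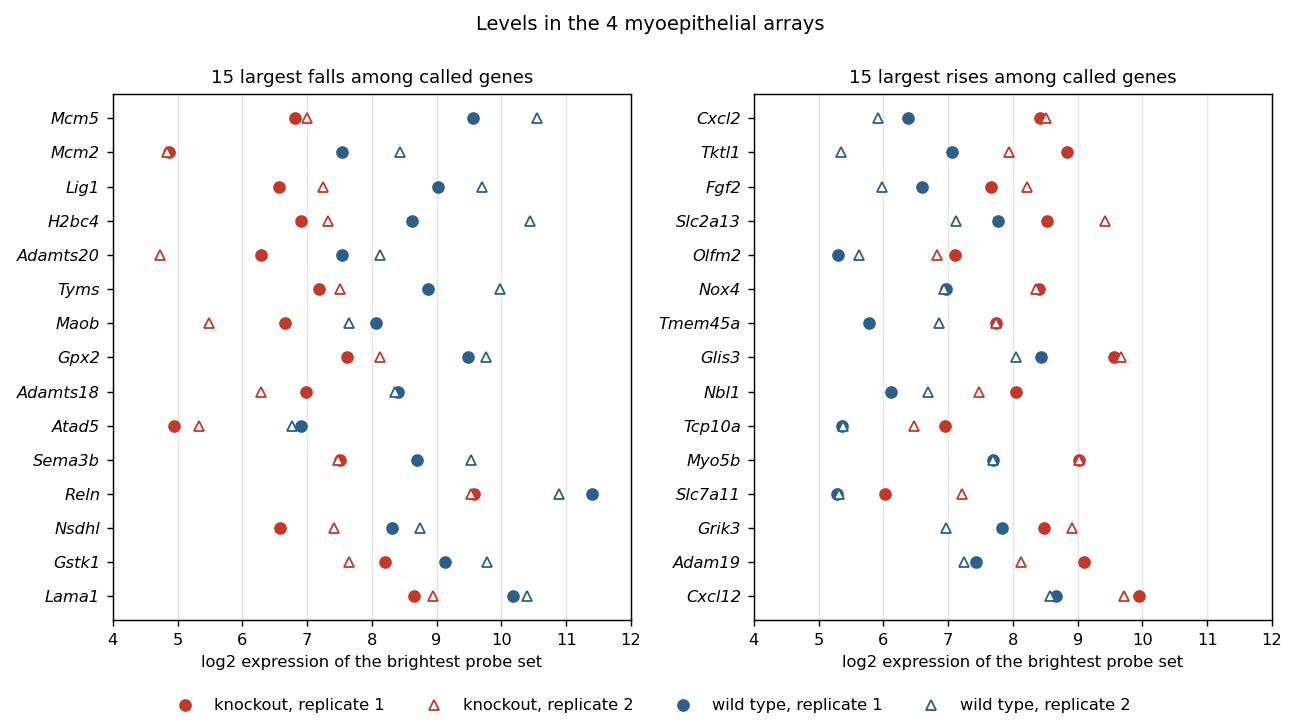
Log2 expression in each of the 4 myoepithelial arrays (x axis) for the 15 largest falls and the 15 largest rises among called genes (y axis), knockout in red and wild type in blue, circles for replicate 1 and triangles for replicate 2. The genes were chosen from those whose groups do not overlap. In Mcm5, Mcm2, Lig1, H2bc4 and Tyms wild-type replicate 2 is the highest array.

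Among the replication-dependent histones, H2bc4 (an H2B gene) had 6.90 and 7.33 in the knockout arrays, against 8.62 and 10.45 in the wild-type arrays. Wild-type replicate 2 again lay highest, and the difference was -2.42 ± 0.44 (5.34-fold, adjusted p = 0.0348). H2B genes are near-identical to each other, so the probe set may not tell them apart. It was the 1 called gene of 7, and without wild-type replicate 2 the difference was -1.52 (adjusted p = 0.0612).

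Of the secreted matrix proteases of the ADAMTS family, 3 fell. These enzymes cut proteoglycans and other matrix proteins outside the cell. Adamts18 had 6.99 and 6.30 in the knockout arrays, against 8.40 and 8.35 in the wild-type arrays (-1.73 ± 0.16, 3.33-fold, adjusted p = 0.00138), and its other 2 probe sets were called lower too. Adamts20 had 6.28 and 4.73, against 7.53 and 8.13 (-2.32 ± 0.35, 5.01-fold, adjusted p = 0.0132). Adamts7 had 7.16 and 7.35, against 8.70 and 8.52 (-1.36 ± 0.16, adjusted p = 0.00406). Knockout values were below wild type in both pairs for all 3, and Adamts18 and Adamts7 were still called without wild-type replicate 2 (adjusted p = 0.00481 and 0.00783), where Adamts20 had -2.02 (adjusted p = 0.0848).

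At the other end of the same list of 15, Adamts5 had 9.79 and 8.91 in the knockout arrays and 8.29 and 7.05 in the wild-type arrays, and Adamts4 had 10.53 and 10.75 in knockout and 9.51 and 8.73 in wild type. Papln (papilin, a matrix protein related to these enzymes) had 8.15 and 8.75 in knockout and 7.27 and 6.53 in wild type. These differences of 1.68 ± 0.35, 1.52 ± 0.34 and 1.55 ± 0.33 missed the threshold, with adjusted p = 0.0575, 0.0717 and 0.0607, and were called without wild-type replicate 1. They were named after their values were seen. The list's median was -0.01, with 3 calls lower and 0 higher, where 0.497% and 0.357% of all genes were called. Like the other lists, it was chosen with earlier results of these data known. Of 12 matrix metalloproteinases and their inhibitors 0 were called, with a median of 0.0049.

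Lama1, Reln and Sema3b, which encode secreted proteins, were also among the genes called lower. Lama1, the alpha chain of laminin-111 in the basement membrane, had 8.65 and 8.95 in the knockout arrays, against 10.18 and 10.40 in the wild-type arrays (-1.49 ± 0.18, 2.81-fold, adjusted p = 0.00437). Reln, the glycoprotein reelin, had 9.57 and 9.53, against 11.40 and 10.89 (-1.59 ± 0.16, 3.01-fold, adjusted p = 0.00165). Sema3b, a secreted semaphorin, had 7.50 and 7.47, against 8.70 and 9.54 (-1.63 ± 0.22, 3.1-fold, adjusted p = 0.00717), and its other probe sets differed by -2.05 ± 0.27, which was called, and -0.48 ± 0.15, which was not. For all 3 the knockout arrays lay close together and below both wild-type arrays, and all 3 were still called without wild-type replicate 2 (adjusted p = 0.02, 0.000311 and 0.0101). Lama1 was the 1 called gene of 21 laminins, integrins and other basement membrane genes, whose median was -0.05.

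Of 19 genes of smooth muscle contraction, the machinery that squeezes the alveolus, 1 was called and the median was -0.04. Cnn1 (calponin, an actin-binding protein of smooth muscle) had 10.44 and 10.26 in the knockout arrays, against 11.03 and 11.19 in the wild-type arrays (-0.76 ± 0.15, adjusted p = 0.0443). It was not called without wild-type replicate 2 (adjusted p = 0.168). Smooth muscle actin Acta2 had 12.76 and 12.88 in knockout and 13.04 and 12.94 in wild type, the myosin heavy chain Myh11 had 12.36 and 12.43 in knockout and 12.52 and 12.28 in wild type, and the oxytocin receptor Oxtr had 10.64 and 10.37 in knockout and 10.83 and 10.86 in wild type. None of those 3 passed the test, and they were named for their role after their values were seen. Of 16 basal transcription factors and regulators of epithelial to mesenchymal transition 0 were called.

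Enzymes of redox metabolism changed in both directions. Gpx2, a glutathione peroxidase, had 7.61 and 8.12 in the knockout arrays, against 9.48 and 9.76 in the wild-type arrays (-1.76 ± 0.17, 3.38-fold, adjusted p = 0.00165). Maob, a monoamine oxidase of the outer mitochondrial membrane, had 6.65 and 5.48, against 8.06 and 7.64 (-1.78 ± 0.29, 3.44-fold, adjusted p = 0.0209). Both were still called without wild-type replicate 2 (adjusted p = 0.00694 and 0.0494). Nox4, an NADPH oxidase that makes hydrogen peroxide, rose, with 8.40 and 8.35 in the knockout arrays, against 6.97 and 6.93 in the wild-type arrays (1.42 ± 0.29, 2.68-fold, adjusted p = 0.0475). Its replicates were close and did not overlap, but it was not called without wild-type replicate 2 (adjusted p = 0.168).

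Those 3 were the calls among 23 genes of reactive oxygen and glutathione metabolism, whose median was -0.15. Of all genes 0.854% were called, and this list too was chosen with earlier results known. Outside that list, the glutathione transferase Gstk1 fell, with 8.21 and 7.65 in the knockout arrays, against 9.13 and 9.78 in the wild-type arrays (-1.52 ± 0.25, adjusted p = 0.0226). Slc7a11, the transporter that exchanges cystine for glutamate, rose, with 6.02 and 7.21, against 5.29 and 5.31 (1.32 ± 0.26, adjusted p = 0.045). Neither Gstk1 nor Slc7a11 was called without wild-type replicate 2.

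Genes of the respiratory chain had lower means in knockout cells, by small amounts and mainly in parent pair 2. Of 31 subunits of complex I, the entry point for electrons from NADH, 3 were called lower, where 0.497% of all genes were. All 31 had a lower mean, and the median was -0.56. Ndufv1, which carries the NADH-binding site, had 10.48 and 10.51 in the knockout arrays, against 11.34 and 11.46 in the wild-type arrays (-0.90 ± 0.11, adjusted p = 0.00608). It was still called without wild-type replicate 2 (adjusted p = 0.0207). The other 2 calls were Ndufv3 (-1.23 ± 0.24, adjusted p = 0.0415) and Ndufa5 (-0.80 ± 0.15, adjusted p = 0.0341), both lost without that array. The median of the list was -0.10 in parent pair 1 and -1.04 in parent pair 2. Without wild-type replicate 1, 29 of the 31 were called lower (median -0.95), and without wild-type replicate 2, 1 was (median -0.23).

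The medians of the rest of the chain also lay lower in parent pair 2, at -0.07 and -0.70 by pair for complexes II and III, -0.06 and -0.80 for cytochrome c oxidase and -0.19 and -0.78 for ATP synthase. Sdha of complex II had 9.58 and 9.67 in the knockout arrays, against 10.43 and 10.41 in the wild-type arrays (-0.80 ± 0.15, adjusted p = 0.0395), while its 3 other probe sets were not called and differed by -0.21, 0.13 and 0.54. Neither Sdha nor Cox7a2, which follows, was called without wild-type replicate 2 (adjusted p = 0.113 and 0.119). Sdha was the 1 call among 13 subunits of complexes II and III (median -0.32). Cox7a2 was the 1 call among 10 subunits of cytochrome c oxidase, with 11.38 and 11.23, against 11.81 and 11.99 (-0.60 ± 0.11, adjusted p = 0.0298). Of 15 subunits of ATP synthase 0 were called, though all 15 had a lower mean (median -0.41). Of these, Atp5h had 11.83 and 11.68 in the knockout arrays and 11.84 and 12.21 in the wild-type arrays, and Atp5g3 and Atp5j2 differed by -0.41 ± 0.13 and -0.66 ± 0.17.

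In the tricarboxylic acid cycle, 2 of 12 genes were called lower, where 0.497% of all genes were. The median was -0.41, with -0.43 in parent pair 1 and -0.54 in parent pair 2. Idh2, the mitochondrial isocitrate dehydrogenase, had 9.64 and 9.34 in the knockout arrays, against 10.27 and 10.83 in the wild-type arrays (-1.06 ± 0.21, adjusted p = 0.0475). Suclg2, a subunit of succinyl-CoA synthetase, had 8.30 and 8.14, against 9.22 and 8.91 (-0.85 ± 0.17, adjusted p = 0.0464), and with the parent pair as a block its adjusted p was 0.05029. Their second probe sets differed by -0.18 ± 0.17 for Idh2 and -0.33 ± 0.29 for Suclg2 and were not called. Without wild-type replicate 2 neither was called (adjusted p = 0.21 and 0.0566). Of 18 genes of glycolysis and the hypoxia response 0 were called (median 0.10). Nsdhl, an enzyme of cholesterol synthesis, fell, with 6.58 and 7.41, against 8.31 and 8.74 (-1.53 ± 0.28, adjusted p = 0.0358), and was not called without wild-type replicate 2 (adjusted p = 0.167). The 15 listed genes of cholesterol and fatty acid synthesis held 0 calls, with 14 lower means and a median of -0.55. Of the 15, 12 were lower without overlap, where 24% of all genes were.

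**Figure D3:**
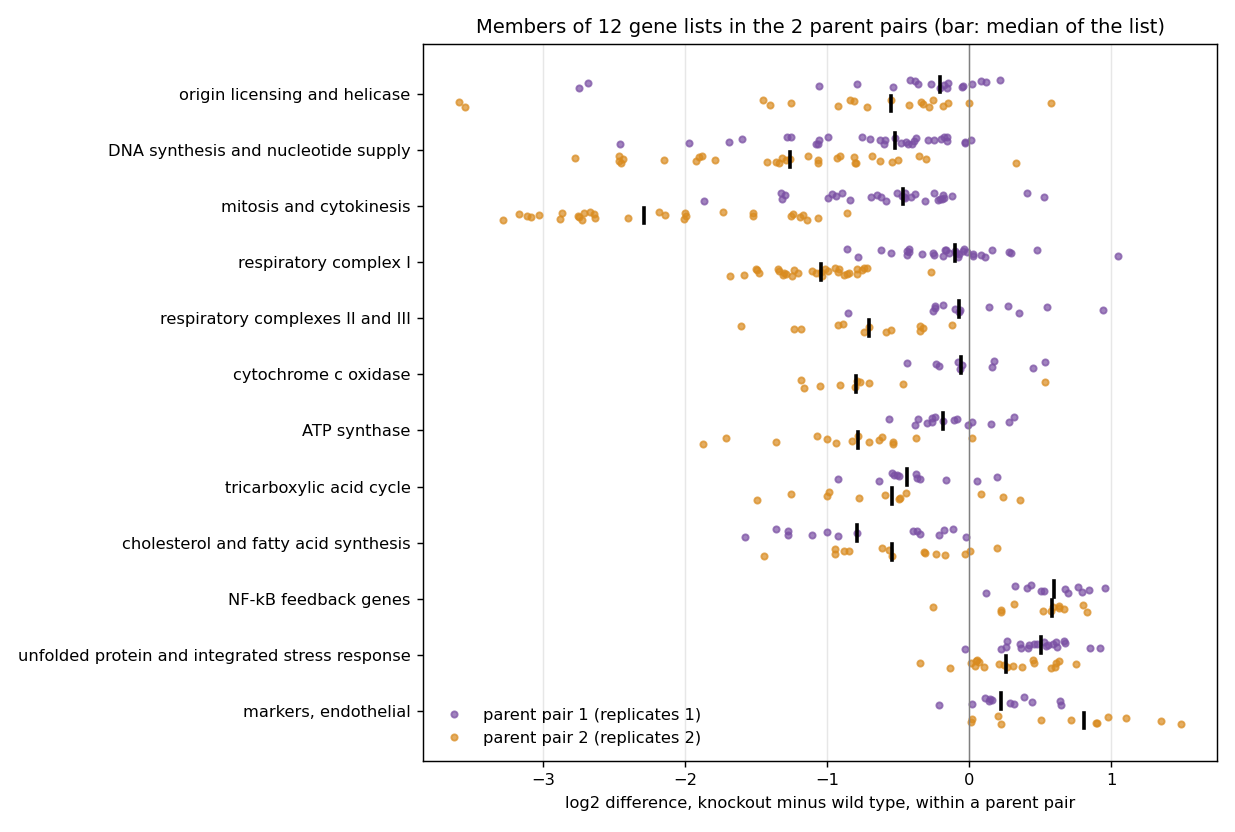
Log2 differences, knockout minus wild type, of the members of 12 gene lists within parent pair 1 (purple) and parent pair 2 (orange), with black bars for the medians. The medians of mitosis genes (-0.47 and -2.29) and of complex I (-0.10 and -1.04) differ between the pairs, whereas those of the NF-kB feedback genes (0.60 and 0.59) and the tricarboxylic acid cycle (-0.43 and -0.54) are close.

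The largest rise was in Cxcl2, a chemokine that attracts neutrophils. It had 8.41 and 8.51 in the knockout arrays, against 6.38 and 5.91 in the wild-type arrays (2.32 ± 0.45, 4.98-fold, adjusted p = 0.042). Knockout values lay above wild type in both pairs, and it was not called without wild-type replicate 2 (difference 2.17, adjusted p = 0.168). The related chemokine Cxcl1 had 9.25 and 8.84 in the knockout arrays and 7.46 and 7.36 in the wild-type arrays, a difference of 1.63 ± 0.65 that did not pass the test (adjusted p = 0.304). Cxcl2 was the 1 call among 21 chemokines and inflammatory cytokines, whose median was 0.08. A rise of similar size in Cxcl2 lay in the alveolar progenitors, at 2.33, against -0.08 in non-clonogenic luminal cells and -0.34 in ductal progenitors. The effect in myoepithelial cells minus the luminal mean was 1.68 ± 0.51 and did not pass the test (limma, adjusted p = 0.156).

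Feedback genes of NF-kB signalling had higher means in knockout cells without a single call. All 12 had a higher mean in knockout cells, in 11 the groups did not overlap (17.5% of all genes were higher without overlap), and the median was 0.54. Nfkbia, the inhibitor that holds NF-kB in the cytoplasm, had 11.93 and 11.55 in the knockout arrays and 11.40 and 11.33 in the wild-type arrays. Nfkbiz had 10.73 and 10.48 in knockout and 10.22 and 9.96 in wild type, and the subunit Rela had 10.28 and 10.30 in knockout and 9.87 and 9.71 in wild type. The list's median was 0.51 without wild-type replicate 2 and 0.67 without wild-type replicate 1, so it did not rest on either array. Of 23 immediate early and dissociation stress genes 0 were called (median 0.21).

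Growth factors and signals rose in single members of their lists. Fgf2 had 7.66 and 8.21 in the knockout arrays, against 6.60 and 5.98 in the wild-type arrays (1.65 ± 0.32, 3.14-fold, adjusted p = 0.0433), the 1 call among 16 fibroblast growth factors, receptors and targets. Nbl1, a secreted antagonist of BMPs, had 8.05 and 7.47, against 6.12 and 6.69 (1.36 ± 0.21, 2.56-fold, adjusted p = 0.0177), the 1 call among 21 TGF-beta and BMP genes. Dll1, a Notch ligand, had 10.43 and 10.23, against 9.61 and 9.20 (0.92 ± 0.16, adjusted p = 0.0298), the 1 call among 12 Notch genes. Wnt9a was the 1 call among 32 Wnt genes, with 7.06 and 6.60, against 6.09 and 5.77 (0.90 ± 0.18, adjusted p = 0.0435), while its second probe set differed by 0.10 ± 0.10. Of these 4, Nbl1 was still called without wild-type replicate 2 (adjusted p = 0.013), and the medians of the 4 lists lay between 0.05 and 0.11. In non-clonogenic luminal cells, ductal progenitors and alveolar progenitors Fgf2 differed by 0.11, -0.21 and 1.12, and Wnt9a by -0.14, 0.02 and 0.63. Fgf2, Nbl1, Dll1 and Wnt9a were not called in the difference in effect from luminal cells, which is described below. Of 11 EGF family genes 0 were called.

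In the list of the RANKL and progesterone axis, 2 of 8 genes were called, in opposite directions, where 0.854% of all genes were called. Tnfrsf11b, or osteoprotegerin, the decoy receptor that binds RANKL, fell, with 7.36 and 7.22 in the knockout arrays, against 8.21 and 8.02 in the wild-type arrays (-0.83 ± 0.15, adjusted p = 0.0361). Its second, dim probe set was called lower too. Cxcl12, a chemokine, rose, with 9.95 and 9.72, against 8.66 and 8.58 (1.22 ± 0.25, 2.33-fold, adjusted p = 0.0477), and with the parent pair as a block its adjusted p was 0.0512. Its other probe sets differed by 1.44 ± 0.29, which was called, and 0.35 ± 0.18, which was not. Neither was called without wild-type replicate 2 (adjusted p = 0.0636 and 0.178). The receptor of RANKL, Tnfrsf11a, had 8.25 and 8.18 in the knockout arrays and 7.83 and 8.63 in the wild-type arrays, and the groups overlapped.

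The other large rises were spread over genes of unrelated roles. Tktl1, a relative of transketolase, had 8.83 and 7.94 in the knockout arrays, against 7.05 and 5.35 in the wild-type arrays (2.18 ± 0.41, 4.54-fold, adjusted p = 0.0374), and all 3 of its probe sets were called higher. It was the 1 call among 7 genes of the pentose phosphate pathway, and without wild-type replicate 2 its difference was 1.33. Olfm2, an olfactomedin, had 7.11 and 6.83, against 5.30 and 5.62 (1.51 ± 0.15, adjusted p = 0.00189). Slc2a13, a transporter of myo-inositol, had 8.53 and 9.41, against 7.78 and 7.13 (1.52 ± 0.24, adjusted p = 0.0187). The zinc finger factor Glis3 had 9.57 and 9.67, against 8.43 and 8.05 (1.38 ± 0.21, adjusted p = 0.0132).

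Tmem45a, a membrane protein, had 7.73 and 7.74 in the knockout arrays, against 5.78 and 6.86 in the wild-type arrays (1.42 ± 0.24, adjusted p = 0.023). Myo5b, a motor of recycling endosomes, had 9.02 and 9.01, against 7.70 and 7.70 (1.32 ± 0.21, adjusted p = 0.0174), with replicates that differed by less than 0.01. Its other probe sets differed by 0.93 ± 0.15, which was called, and 0.02 ± 0.14, which was not. Grik3, a kainate receptor subunit, differed by 1.30 ± 0.23, the membrane protease Adam19 by 1.28 ± 0.22 and Tcp10a by 1.35 ± 0.16, with adjusted p = 0.0312, 0.0292 and 0.00406. In each the groups did not overlap, as in all 146 called genes. Olfm2, Tmem45a and Tcp10a were still called without wild-type replicate 2 (adjusted p = 0.00305, 3.1e-05 and 0.0158), and the other 6 of these genes were not.

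Lists of stress and RNA handling held no calls. Of 20 genes of the unfolded protein and integrated stress response 0 were called, with 19 higher means and a median of 0.38. The chaperone Hspa5 had 12.21 and 12.27 in the knockout arrays and 11.75 and 11.81 in the wild-type arrays, while Hsp90b1 and Manf differed by 0.16 ± 0.13 and 0.32 ± 0.25. That median was 0.69 without wild-type replicate 2 and -0.01 without wild-type replicate 1, so it rested on wild-type replicate 1. Of 19 interferon response genes 0 were called, with a median of -0.38 that was -0.79 without wild-type replicate 1 and 0.07 without wild-type replicate 2. Of 24 genes of deadenylation and the poly(A) machinery, in which CPEB proteins act, 0 were called (median 0.03).

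Among markers of other cell types, Mcam and Cd74 were the 2 calls, and some lists lay to one side without a call. All 12 endothelial markers had a higher mean in knockout arrays, with a median difference of 0.50 and 0 calls. Their mean log2 level was 6.55 and 7.05 in the knockout arrays and 6.29 and 6.35 in the wild-type arrays, against 5.80 to 6.25 in the luminal arrays. Pecam1 had 7.78 and 8.40 in the knockout arrays and 7.63 and 7.29 in the wild-type arrays, Cdh5 had 8.47 and 9.30 in knockout and 7.83 and 7.81 in wild type, and Egfl7 had 7.18 and 7.26 in knockout and 6.89 and 7.25 in wild type. Knockout replicate 2 was the highest array, and without it the list's median was 0.12. Among 6 pericyte markers, Mcam was called higher, with 7.37 and 7.07 in the knockout arrays, against 6.57 and 6.28 in the wild-type arrays (0.80 ± 0.14, adjusted p = 0.0253). It was not called without wild-type replicate 2 (adjusted p = 0.13), and the mean level of the list was 6.53 and 6.70 in the knockout arrays and 6.41 and 6.31 in the wild-type arrays. All 4 red cell markers had a lower mean in knockout arrays, with mean levels of 8.43 and 8.47 there and 8.77 and 8.98 in the wild-type arrays. The part of these cells in the rises of Cxcl12, Fgf2 and other genes was not tested.

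Among 17 leukocyte markers, Cd74 (the invariant chain of MHC class II) was called lower, with 7.69 and 7.76 in the knockout arrays, against 8.90 and 8.93 in the wild-type arrays (-1.19 ± 0.16, adjusted p = 0.00847). It was still called without wild-type replicate 2 (adjusted p = 0.0375). The mean level of the list was 5.76 and 5.76 in the knockout arrays and 5.88 and 5.89 in the wild-type arrays, and 6 of the 17 lay under the lower quartile in every array. Ptprc, which defines leukocytes, had 3.98 and 3.87 in knockout and 3.87 and 3.93 in wild type. Of the luminal, fibroblast, adipocyte, red cell and Schwann cell markers 0 were called.

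To ask which changes differed from those in the rest of the gland's epithelium, the knockout effect in myoepithelial cells was set against its mean in the 3 luminal populations of the same mice. Of 45037 probe sets, 200 were called in this difference (0.444%), or 119 with the parent pair as a block. Of 17097 genes 80 were called (0.468%), and 50 of the 146 genes called in myoepithelial cells were among them, 31 of the lower and 19 of the higher ones. With the parent pair as a block 33 of these 50 were called, and without wild-type replicate 2 of the myoepithelial arrays 31 were.

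Several of the matrix and redox genes that fell in myoepithelial cells were called in this difference. Adamts18 differed by -1.73 in myoepithelial cells, against 0.06, 0.03 and 0.02 in non-clonogenic luminal cells, ductal progenitors and alveolar progenitors, a difference in effect of -1.77 ± 0.18 (adjusted p = 0.00499). In luminal arrays this gene lay under the lower quartile, at 4.30 to 4.5, as did Adamts20 at 3.71 to 3.87, so that a fall could hardly be measured there, and Reln lay just above it, at 5.34 to 5.66. Reln, Gpx2, Lama1 and Sema3b gave differences in effect of -1.63 ± 0.18, -1.78 ± 0.20, -1.44 ± 0.20 and -1.69 ± 0.25, with adjusted p = 0.00575, 0.0063, 0.0155 and 0.0191. H2bc4, Adamts20 and Maob gave -2.68 ± 0.50, -2.29 ± 0.39 and -2.23 ± 0.33, with adjusted p = 0.0468, 0.0342 and 0.0191. Maob differed by 1.5 in alveolar progenitors, which is part of its value.

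Of the rises, Nox4 gave the largest difference in effect, 2.24 ± 0.32 (adjusted p = 0.0176). Part of it lay in the luminal cells, where the knockout differed by -0.90 in non-clonogenic cells, -1.74 in ductal progenitors and 0.17 in alveolar progenitors. Myo5b, Slc2a13, Glis3, Tmem45a and Olfm2 gave 1.59 ± 0.23, 1.57 ± 0.28, 1.53 ± 0.23, 1.46 ± 0.27 and 1.42 ± 0.17, with adjusted p = 0.0191, 0.0365, 0.0233, 0.0462 and 0.0107. Olfm2 was near level in all 3 luminal populations, at 0.05, 0.23 and -0.02.

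None of the named replication genes was called in the difference in effect. Mcm5 differed by -3.15 in myoepithelial cells, against -3.26, -3.13 and -3.67 in the luminal populations, a difference in effect of 0.21 ± 0.54 (adjusted p = 0.867). Mcm2, Lig1, Tyms and Atad5 gave -0.67 ± 0.51, -0.49 ± 0.43, 0.33 ± 0.44 and 0.21 ± 0.26, with adjusted p of 0.526 to 0.730. Over the list of DNA synthesis the median difference was -0.94 in myoepithelial cells, against -1.62, -1.54 and -1.46 in the luminal populations. In the difference in effect 0 of its 31 genes were called. Over the 30 mitosis genes the median was -1.33 in myoepithelial cells, against -2.87, -2.88 and -1.56 in the luminal populations. Of those mitosis genes 0 were called in the difference in effect.

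**Figure D4:**
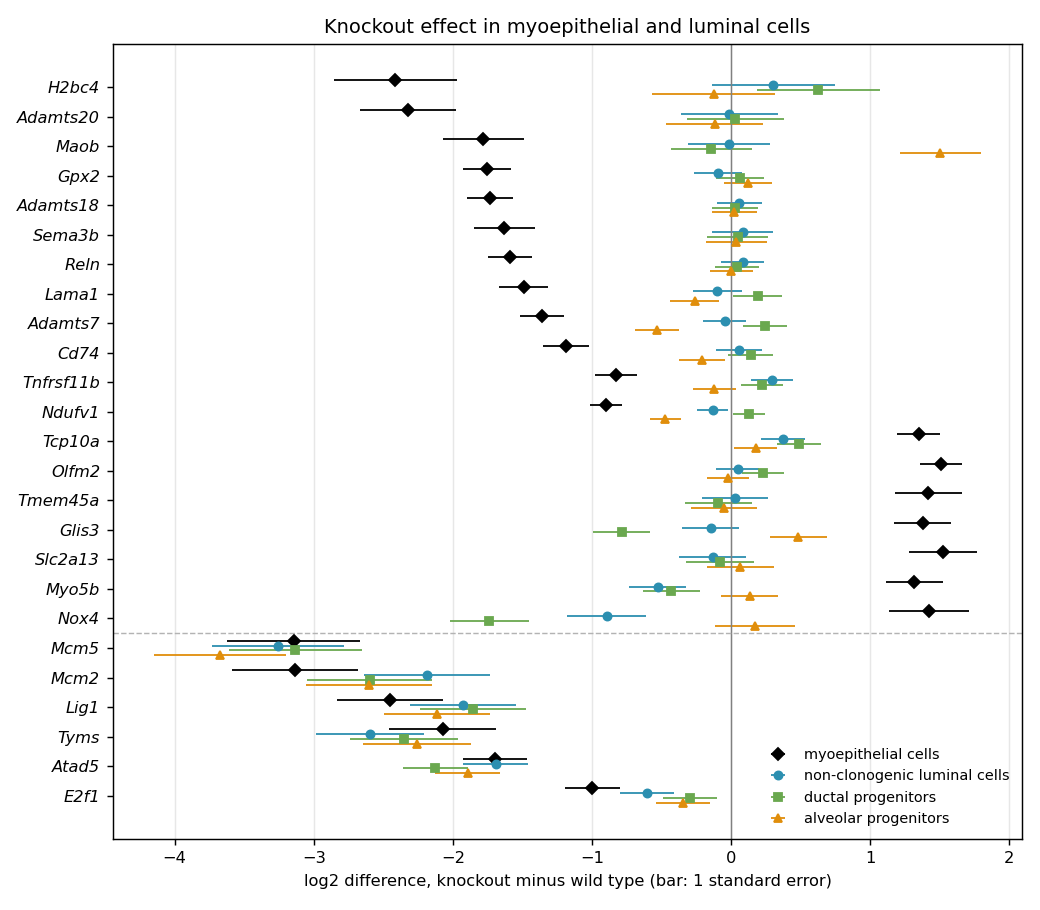
Log2 differences, knockout minus wild type, with 1 standard error, in myoepithelial cells (diamonds) and in 3 luminal populations (circles, squares, triangles) for the 19 named genes called in the difference in effect and, below the dashed line, 6 genes of DNA replication. In genes such as Gpx2 (-1.76 in myoepithelial cells) and Olfm2 (1.51) the luminal points lie near 0, which for Adamts18 and Adamts20 their low luminal levels fix, whereas in Mcm5 (-3.15) all 4 populations lie together.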

How the data were processed

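RNA was measured on Affymetrix mouse arrays in sorted mammary cells. The authors deposited log2 values per probe set. RMA and limma are named in the submitters' processing notes, without version or role, and the protocols in the labels start from 15 ng of total RNA, amplified to give 8 µg of biotin-labelled cDNA per array. The sources used here do not state any batch correction or filter.

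The deposited table holds 45141 probe sets. The 104 array controls were left out, and 45037 were tested. The array's annotation gave 1 gene symbol for 28898, several for 551 and none for 15588. Each gene was described by its brightest probe set (highest mean of all 16), which gave 17097 genes. Levels of different genes are not compared.

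A single limma model took in all 16 arrays (version 3.58.1, R 4.3.3, statmod 1.5.0) with 8 group means, mouse as a random block (correlation 0.0372) and a trend in eBayes (8 residual and 3.76 prior degrees of freedom). Differences are log2, knockout minus wild type, with the standard error of the fit. Benjamini-Hochberg adjustment ran over all probe sets, with calls at 0.05. The fit was tested on simulated data. No set tests were run. Precision is limited by 2 arrays a group.

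Genes named are the CPEB family, Tnfsf11, the sort antigens, the 15 largest rises and 15 largest falls among called genes without overlap, the 6 largest of each sign in the difference in effect, up to 4 called members of each of 42 lists (731 genes, 642 measured) and up to 3 bright members of a list with no call. Cxcl1, Tnfrsf11a and Ptprc, none of them called, are named outside this rule. Lists, members and this rule were chosen with earlier results of these data known. A dim probe set is one under the lower quartile of all values, 5.13. The replicate numbers pair mice by parents given in the labels, and the deviations of same-pair mice correlated at -0.081 in myoepithelial cells and -0.020 to 0.073 elsewhere. The main fit has no pair block. The alternatives were other blocks, filters, scalings, eBayes settings and arrays left out.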

Additional observations from a re-analysis of the deposited data

Results flagged for a closer look

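For 19 named genes the knockout effect in myoepithelial cells differed from its mean in the 3 luminal populations by a test of the difference itself (limma, adjusted p under 0.05). The values are log2 differences of effect, myoepithelial minus luminal. The effect was lower in myoepithelial cells for the histone gene H2bc4 (-2.68), the proteases Adamts20 (-2.29), Adamts18 (-1.77) and Adamts7 (-1.25), and the enzymes Maob (-2.23) and Gpx2 (-1.78). The secreted or matrix proteins Sema3b (-1.69), Reln (-1.63) and Lama1 (-1.44), Cd74 (-1.18), the RANKL decoy receptor Tnfrsf11b (-0.96) and the complex I subunit Ndufv1 (-0.74) also had a lower effect there. The effect was higher in myoepithelial cells for Nox4 (2.24), Myo5b (1.59), Slc2a13 (1.57), Glis3 (1.53), Tmem45a (1.46), Olfm2 (1.42) and Tcp10a (1.0). Adamts18 and Adamts20 lay under the lower quartile of all values (5.13) in every luminal array, at 4.30 to 4.5 and 3.71 to 3.87, and Maob had a luminal median of 4.40. For these 3 a fall could hardly be measured in most luminal arrays. Reln lay just above that quartile in the luminal arrays, which left little room for a fall there. Groups of 2 arrays are too small for a test of single outlying arrays.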

How the results depend on the processing

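Against 336 probe sets called by limma in myoepithelial cells, a fit of 1 probe set a gene gave 173, array weights gave 106, and the 4 myoepithelial arrays alone gave 0, where 3824 probe sets had an unadjusted p under 0.05. For the difference in effect (200 called), 1 probe set a gene gave 117, array weights 62 and the replicate block of parent pairs 119, while in myoepithelial cells the block gave 375. Leaving out 1 myoepithelial array gave 158 to 2725 calls in myoepithelial cells and 98 to 1558 in the difference, with the highest of both without wild-type replicate 1. Leaving out a whole mouse gave 16 and 35 calls without knockout replicates 1 and 2 and 2922 and 115 without wild-type replicates 1 and 2, and in the difference 23, 21, 1007 and 1064 in that order. With 1 array left in a group, that array is assumed to vary like the other groups.

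The parent pair block lost 2 of the 45 named called genes, array weights 30, no trend in eBayes 7, centring 3, a second quantile normalization 1, and the 4 arrays alone all 45. Leaving out knockout replicates 1 and 2 lost 30 and 24, and leaving out wild-type replicates 1 and 2 lost 1 and 31. Leaving out the whole mouse lost 41, 40, 5 and 33 in that order. None of the 45 changed sign in the 18 settings, and with an array left out none could, since their groups did not overlap. Among named genes without a call, signs turned without wild-type replicate 2 in Tnfsf11 (0.013, and 0.0040 without that mouse) and Itga6 (-0.27 and -0.28), and without wild-type replicate 1 in Egfl7 (-0.026 and -0.027). With 1 array left out these ranged from -0.49 to 0.013, from -0.27 to 0.39 and from -0.026 to 0.33. For Cpeb2 the adjusted p ranged from 0.264 to 0.865. Dim probe sets such as those of Cpeb2 and Tnfsf11 limit what a small difference can show.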

Other observations

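Some of the 85 genes called lower are in no gene list, and those given here were picked after their values were seen, so they stand for no group. Bckdhb, a subunit of the branched-chain keto acid dehydrogenase, had 6.63 and 7.01 in the knockout arrays, against 7.80 and 8.20 in the wild-type arrays, a difference of -1.18 ± 0.18 (limma, adjusted p = 0.0132). Pcca and Mmut, which act one after the other on propionyl-CoA and methylmalonyl-CoA, differed by -1.01 ± 0.19 and -0.98 ± 0.19 (adjusted p = 0.0351 and 0.0463), and Etfa, an electron carrier of fatty acid oxidation, by -0.73 ± 0.14 (adjusted p = 0.0389). Abat, which breaks down the transmitter GABA, had 6.59 and 6.73, against 7.94 and 7.59 (-1.10 ± 0.16, adjusted p = 0.0104), and was the 1 of these 5 still called without wild-type replicate 2 (adjusted p = 0.00861).

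Some basal and secreted genes outside the naming rule were also called lower and still called without wild-type replicate 2. The basal keratin Krt15 had 8.04 and 7.98 in the knockout arrays, against 8.86 and 9.90 in the wild-type arrays (-1.37 ± 0.25, limma, adjusted p = 0.0341). Wif1, a secreted inhibitor of Wnt proteins, had 8.64 and 7.90, against 9.64 and 9.72 (-1.41 ± 0.17, adjusted p = 0.00492). Their differences in effect from luminal cells were -1.54 ± 0.28 and -1.39 ± 0.19, with adjusted p = 0.0462 and 0.0155. Artn, a ligand of the GDNF family, was called higher, with 7.21 and 7.38, against 6.10 and 6.60 (0.95 ± 0.15, adjusted p = 0.0159). Within 20 Mb of Cpeb2 on chromosome 5, 3 of 222 genes were called (1.35%, against 0.854% of all genes): Tyms, Tada2b and Msantd1.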
